A study of Mus musculus with 9 samples.

Results

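Accessible chromatin at 6 killer lectin-like receptor genes, Klrg1, Klrd1, Klrk1, Klrc1, Klre1 and Klrb1c, was followed in tumor-specific CD8 T cells of the mouse on days 4, 8 and 21 after their transfer. All 6 lie on chromosome 6. The peaks of all 9 libraries were merged into union regions wherever they shared at least 1 base, and a region was taken as a receptor region if it overlapped the mm10 body of a member gene, or if its nearest protein-coding gene end within 100 kb was that of a member. This rule, which uses positions only, gave 27 of 62963 union regions: 9 at Klrb1c, 6 at Klrg1, 5 at Klre1, 3 at Klrk1 and 2 each at Klrd1 and Klrc1. Of these, 11 overlapped a gene body and 16 lay outside, the farthest 23.9 kb from its gene and so well within the limit.

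The measurement was ATAC-seq, in which a transposase cuts and tags open DNA, so that the density of tagged fragments marks accessible sites. P14 cells are CD8 T cells that all carry the same transgenic receptor, which recognizes a glycoprotein peptide of lymphocytic choriomeningitis virus. They were taken naive (CD44-GFP+) from TCF-1-GFP reporter P14 mice and given to C57BL/6 mice carrying subcutaneous B16.F10 melanoma that expresses that glycoprotein. For every library 500000 cells were transferred when the tumor was 8 days old. Later days thus also have older tumors, and time after transfer and tumor age cannot be told apart. CD45.1+CD44+CD8 T cells were sorted from tumor-draining lymph nodes on day 4 (3 libraries), day 8 (3) and day 21 (3). All 9 libraries share the reporter, the receptor, the tumor and the WT label, and the design holds neither tumor-free nor untransferred cells. The labels do not tie the libraries of a day to separate animals, so the p-values below measure only the spread between libraries, which may be technical.

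Killer lectin-like receptors are type II membrane proteins with a C-type lectin-like domain. They were first studied on natural killer (NK) cells, where inhibitory and activating members read surface molecules of other cells, and activated CD8 T cells take up several of them. Klrg1 is an inhibitory receptor for classical cadherins and a common marker of short-lived effector CD8 T cells. Klrc1 (NKG2A) is the inhibitory chain that pairs with Klrd1 (CD94) and binds the nonclassical class I molecule Qa-1, encoded by H2-T23. Klrk1 (NKG2D) is an activating and costimulatory receptor that signals through the adaptors Hcst (DAP10) and Tyrobp (DAP12). Klre1 pairs with the products of Klri1 or Klri2, and Klrb1c encodes NK1.1, the antigen used to identify NK cells in C57BL/6 mice. Klre1, Klrd1 and Klrk1 stand next to each other, Klrc3 and Klrc2 separate them from Klrc1, Klrb1c lies nearby in the same NK gene complex, and Klrg1 lies apart from it.

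The stretches before the annotated start sites are shown because they can be set beside the called regions at 4 of the genes. RefSeq (GRCm38.p6, the assembly of mm10) gave windows for Klrb1c, Klrc1, Klrk1 and Klre1, and not for Klrg1 and Klrd1. Each sequence below is the 250 bases before the annotated start, 5′ to 3′ on the gene's strand, with the RUNX letters TGTGGT or their reverse complement ACCACA in capitals. The windows are chr6:128788642-128788891 (minus strand) for Klrb1c, chr6:129678974-129679223 (minus strand) for Klrc1, chr6:129623865-129624114 (minus strand) for Klrk1 and chr6:129577963-129578212 (plus strand) for Klre1.
Klrb1c: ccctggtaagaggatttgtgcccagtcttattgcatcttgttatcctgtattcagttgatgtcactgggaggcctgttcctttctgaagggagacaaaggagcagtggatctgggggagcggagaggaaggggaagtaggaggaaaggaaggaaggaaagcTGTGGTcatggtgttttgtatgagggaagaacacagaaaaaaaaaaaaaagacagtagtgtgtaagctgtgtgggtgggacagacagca
Klrc1: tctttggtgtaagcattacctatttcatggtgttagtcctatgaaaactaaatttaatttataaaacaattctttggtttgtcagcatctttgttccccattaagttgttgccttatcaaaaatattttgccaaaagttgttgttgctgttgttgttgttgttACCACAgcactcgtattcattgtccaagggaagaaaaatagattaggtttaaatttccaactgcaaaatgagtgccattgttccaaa
Klrk1: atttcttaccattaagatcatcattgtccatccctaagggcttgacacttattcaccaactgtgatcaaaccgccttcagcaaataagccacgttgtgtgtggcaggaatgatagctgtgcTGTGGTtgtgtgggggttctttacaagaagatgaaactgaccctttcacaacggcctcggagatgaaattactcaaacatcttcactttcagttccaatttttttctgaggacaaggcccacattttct
Klre1: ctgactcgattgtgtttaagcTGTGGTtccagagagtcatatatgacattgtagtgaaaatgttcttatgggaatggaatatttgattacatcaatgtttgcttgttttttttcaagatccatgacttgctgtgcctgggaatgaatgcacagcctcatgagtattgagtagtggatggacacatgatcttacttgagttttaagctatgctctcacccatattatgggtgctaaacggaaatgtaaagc

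Each of the 4 windows held the RUNX letters 1 time, 89 bases before the start for Klrb1c, 87 for Klrc1, 129 for Klrk1 and 229 for Klre1. Among all 32851 mouse windows of this length, 14.05% held them on either strand. A further Klre1 window for a start at chr6:129578286 held none. In none of the 5 windows were there T-box letters TCACACC (3.33% of all windows), AP-1 letters TGANTCA (6.75%), TCF/LEF letters CTTTGA (13.8%) or ETS letters CCGGAA (12.03%). These letters were chosen after the sequences had been seen, both strands were searched, and a match describes the letters only.

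Few calls fell on these windows. The Klrc1 window was overlapped by a region called in 2 of 9 lists (chr6:129678727-129679004, 1 list of day 8 and 1 of day 21), and the Klrb1c window by a region called in 1 list of day 8 (chr6:128788554-128788754). No region touched the Klrk1 or Klre1 windows. Their nearest regions lay 3398 bp from the Klrk1 start and 2221 bp from the Klre1 start, and both of those were called in all 9 lists. The 2 Klre1 windows lie inside the gene body, whose lower end at chr6:129559365 was overlapped by a region called in 8 of 9 lists (chr6:129559275-129559639). No window for a start at that end was used here. At Klrc1 the region called in all 9 lists lay 1146 bp upstream of the start. The regions called in all 9 lists at these 4 genes thus stood outside the printed stretches.

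The lists differ greatly in length, and this touches every count below. Day 4 lists held 19499 to 22250 peaks, day 8 lists 47513 to 50835 and day 21 lists 46492 to 51671. Pairs of lists of the same day shared 0.744 to 0.794 of their called regions (Jaccard index), and pairs of different days 0.356 to 0.759. Whether fewer peaks on day 4 reflect the cells or the libraries was not tested, and in bulk samples fewer cells with an open site and less opening per cell cannot be told apart. Counts are therefore given as they stand, relative to list length, and in lists that keep only their 19499 strongest peaks by the authors' −log10 p, the number in the shortest list.

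As labelled, the sort yielded CD8 T cells, and each of 9 markers of that type (Cd3e, Cd8a and Cd8b1 among them) had called regions on every day, 18–24 of their 79 union regions per list on day 4, 54–60 on day 8 and 52–62 on day 21. The 9 NK cell markers include Klrb1c itself, and 15–22 of their 52 regions were called on day 4, 34–41 on day 8 and 41–46 on day 21, and Ncr1, Fcer1g and Klra8 were at 0 on day 4. B cell markers had 0–1 called regions of 21 on day 4, when 6 of the 7 were at 0, 15–16 on day 8 and 12–16 on day 21, with Ms4a1 at 0 on all days. Myeloid markers had 2–3, 10–12 and 12–14 called regions of 17 (Lyz2 at 0 on all days), melanoma markers 4–6, 8–9 and 10–12 of 13 (Tyr, Tyrp1 and Sox10 at 0), and CD4 and regulatory T cell markers 4–6, 15–17 and 13–15 of 18 (Foxp3 at 0). The part of other cell types in the receptor results was not tested.

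Receptor regions were called in larger shares than regions at large, most clearly on day 4. Day 4 lists called 12.7 ± 1.53 of the 27 (SD, n = 3, range 11 to 14), day 8 lists 21.3 ± 0.577 (21 to 22) and day 21 lists 21.7 ± 1.53 (20 to 23). As shares these were 46.9%, 79.0% and 80.2%, beside 30.2%, 74.5% and 73.9% of all union regions, a difference that was not tested. All 9 lists called 10 of the 27 (37.0%), compared with 15109 of all regions (24.0%), and 3 were called in a single list. In the lists of equal length the later counts were the smaller ones: 12.7 ± 1.53 receptor regions were called on day 4, 10.3 ± 0.577 on day 8 and 9.67 ± 1.53 on day 21. The number of all regions called in these lists was used only as a divisor in the test per gene, and its share is not given here. Dividing by it lowered the log2 difference of Klrg1 from 0.25 to 0.16 on both later days against day 4. The later lists of equal length thus called somewhat more regions in all. The difference between days in receptor regions was not tested, so it cannot be assigned to the receptor genes. The receptor regions were of ordinary size, with a median width of 433 bp (201 to 1154) beside 461 bp for all regions.

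**Figure D1:**
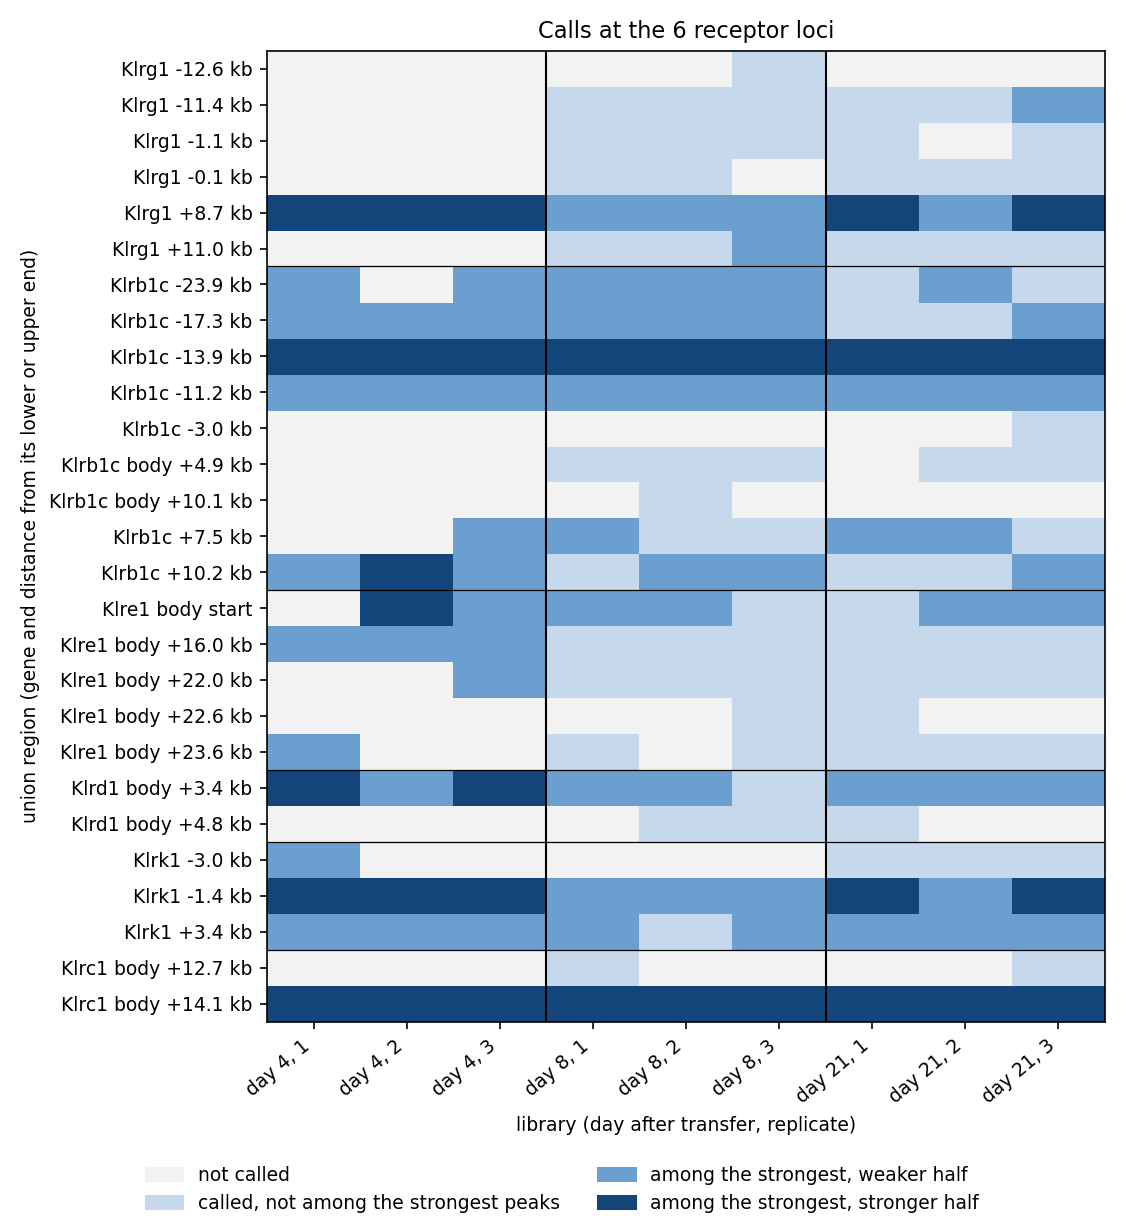
Map of the 27 receptor regions (vertical axis, named by gene and by distance in kb from the lower or upper gene end, or from the lower end inside a body) in the 9 libraries (horizontal axis), shaded by whether the region was called and whether it was among the 19499 strongest peaks of its list. The Klrg1 regions other than the one at +8.7 kb are empty on day 4 and filled later, while the Klrc1 region at +14.1 kb is dark in all 9 libraries.

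A gain was a region absent from all 3 lists of the earlier day and present in all 3 of the later day. From day 4 to day 8, 4 of 27 receptor regions were gained (14.8%), beside 25.7% of all union regions, and 0 were lost, beside 0.00953%. Day 21 against day 4 gave 3 gained (11.1%), beside 25.3%, and 0 lost, beside 0.00794%. From day 8 to day 21, 1 region was gained (3.70%), beside 1.02%, and 0 were lost, beside 1.09%. The difference in share between receptor regions and regions at large was not tested, and it rests on few regions. With lists of equal length no receptor region was gained in any comparison, and 1, inside Klre1, was lost on day 8 and on day 21 against day 4. Of all 62963 union regions, 861 were then gained and 397 lost on day 8 against day 4, and 891 and 372 on day 21 against day 4. Between days 8 and 21, 402 were gained and 335 lost. With such small shares at large, counts of 0 and 1 among 27 say little about the receptor genes. Without the third library of day 4, 6 regions were gained on day 8 against day 4, and without the first or the third of day 4, 5 were gained on day 21 against day 4.

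For the test per gene, the number of regions called was divided by the length of the list and compared on a log2 scale with limma over 7828 genes with at least 3 union regions. A log2 difference above 0 thus means a larger relative rise in called regions than over the whole list. It does not show more than a longer list gives, since a longer list need not add regions to all genes in proportion. In lists of equal length only 11 and 9 genes were called on day 8 and day 21 against day 4. On day 8 against day 4, 15.5% of genes were higher and 24.3% lower at a Benjamini-Hochberg adjusted p of 0.05, and on day 21 against day 4 15.3% and 24.1%. Of the called genes 39.0% and 38.8% were higher. This split depends on the scale: it was 19.2% and 18.5% with a pseudocount of 1, and 52.1% and 56.2% among genes with at least 6 regions. Without division all 6509 and 6360 called genes were higher, since the median log2 difference of all genes went from −0.14 to 1.17 on day 8 and from −0.15 to 1.14 on day 21. Day 21 against day 8 gave 0 genes in either direction (671 at an unadjusted p under 0.05, and 2 called by limma without the floor on the variance). A count of 0 does not show that no gene changed, since in simulated lists this test missed most changed genes, even where the change was large. A gene with much of its regions called on day 4 could only come out lower later, and this held for 2971 of the 7828 genes on day 8 and for 1724 of the 1903 lower calls (2957 genes and 1737 of 1888 calls on day 21).

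Klrg1 was higher after day 4, and Klrk1, Klre1 and Klrb1c were lower, among the 4 receptor genes that could be tested. Klrd1 and Klrc1 have 2 union regions each and fell below the minimum of 3. When genes with at least 1 region were admitted, 5952 of 16070 genes were lower on day 8 and 5801 on day 21 against day 4 (limma). The median differences of all genes were then −0.53 and −0.55. In this setting Klrc1 was lower on day 8 (−1.06, limma adjusted p = 0.0393) and on day 21 (−1.04, 0.0411) against day 4. Klrd1 was lower on day 21 (−1.04, 0.0328) and did not pass on day 8 (−0.81, 0.0776). For both the highest values they could reach were −0.57 and −0.55, so a lower value was fixed by the division. The median of the 4 on day 8 against day 4 was −0.71, beside −0.14 for all genes. The number of union regions sets a ceiling for each gene. Had every region of Klrk1, Klre1 and Klrb1c been called on day 8, their differences would still have been −0.98, −0.33 and −0.50, so these 3 could only come out lower, and for Klrg1 the ceiling was 0.81. On day 21 the ceilings were −0.97, −0.31 and −0.49, and 0.83 for Klrg1.

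Klrg1, the cadherin receptor, went from 1 called region to 5. Its body spans chr6:122270596-122282833, and none of its 6 regions overlapped it. Every day 4 list called 1 region, every day 8 list 5, and the day 21 lists 5, 4 and 5. The groups of day 4 and of the later days did not overlap, but the later lists are longer. Without division, 6509 of the 7828 genes were called higher on day 8 and 6360 on day 21 against day 4 (limma). On day 8 against day 4 the log2 difference relative to list length was 0.57 ± 0.15 (SE, limma adjusted p = 0.0115), and on day 21 against day 4 it was 0.49 ± 0.15 (adjusted p = 0.0242). Day 21 and day 8 differed by −0.08 ± 0.15 (adjusted p = 0.933). The day 21 call was lost without the third library of day 4 (0.43, adjusted p = 0.0536) or without the first (0.42, 0.0962) or the third (0.49, 0.0641) of day 21. In lists of equal length Klrg1 had 1 region in every list except 1 of day 8 and 1 of day 21, which had 2, and its differences no longer passed (0.16, adjusted p = 0.914 on day 8, and 0.16, 0.915 on day 21). With a pseudocount of 1 they did not pass either (0.28, 0.0857 and 0.21, 0.199). When peaks had to cover at least 50% of a region, the differences turned to −0.12 (0.623) and −0.21 (0.379).

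The Klrg1 regions that were absent on day 4 lay on both sides of the gene. The region at chr6:122258757-122259186, 11.4 kb below the lower end, and the one at chr6:122293810-122294242, 10.98 kb above the upper end, were called in 0 of 3 lists on day 4 and in 3 of 3 on both later days. At chr6:122269152-122269530, 1.07 kb below the gene, calls went from 0 to 3 and 2 lists. The region closest to the gene, chr6:122270151-122270542, 54 bp below it, was called in 0, 2 and 3 lists. The sixth region, chr6:122257693-122257980, was called in 1 list of day 8 only.

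The 1 Klrg1 region called on day 4 lies at chr6:122291530-122292485, 8.70 kb above the gene, and was called in all 9 lists. The authors' fold enrichment at its summit was 5.63, 6.47 and 6.17 on day 4, 5.74, 7.01 and 6.53 on day 8, and 7.22, 6.79 and 7.70 on day 21. Regions were ranked by the −log10 p of their strongest peak among the 19499 strongest peaks of each list, with 1 the strongest. This region ranked 7533, 5159 and 4930 on day 4, 17846, 13403 and 13209 on day 8, and 9704, 11863 and 7865 on day 21. Day 4 held the smallest rank numbers, day 8 the largest and day 21 lay between, without overlap of the groups, an order not counted over all regions. As a share of the full list, however, these ranks were 22.2–37.9%, 26.0–37.6% and 15.2–25.5%, and the groups of days 4 and 8 overlapped. A rank in a short list and in a long one differ in meaning, so the rank differences against day 4 describe positions in the lists and not a change in accessibility. The rank tests were chosen after ranks of receptor peaks had been seen. They run over 12755 regions ranked in all 9 lists, of which 7.92% were stronger and 6.73% weaker on day 8 against day 4. The log2 rank difference was 1.35 ± 0.25 (limma adjusted p = 0.000275), that is, a larger rank number on day 8. Taken as a share of the full list it was 0.097 ± 0.27 (adjusted p = 0.736). On day 21 against day 4 it was 0.75 ± 0.25 (adjusted p = 0.0362), beside 8.5% of regions stronger and 7.34% weaker, and as a share of the full list it turned to −0.49 ± 0.27 (adjusted p = 0.0854). That call was lost without the second (0.67, adjusted p = 0.0844) or the third (0.63, 0.103) library of day 4 and without the first (0.74, 0.0848) or second (0.60, 0.173) of day 21. The difference between days 21 and 8 did not pass (−0.60 ± 0.25, adjusted p = 0.140), beside 3.58% of regions stronger and 2.67% weaker.

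**Figure D2:**
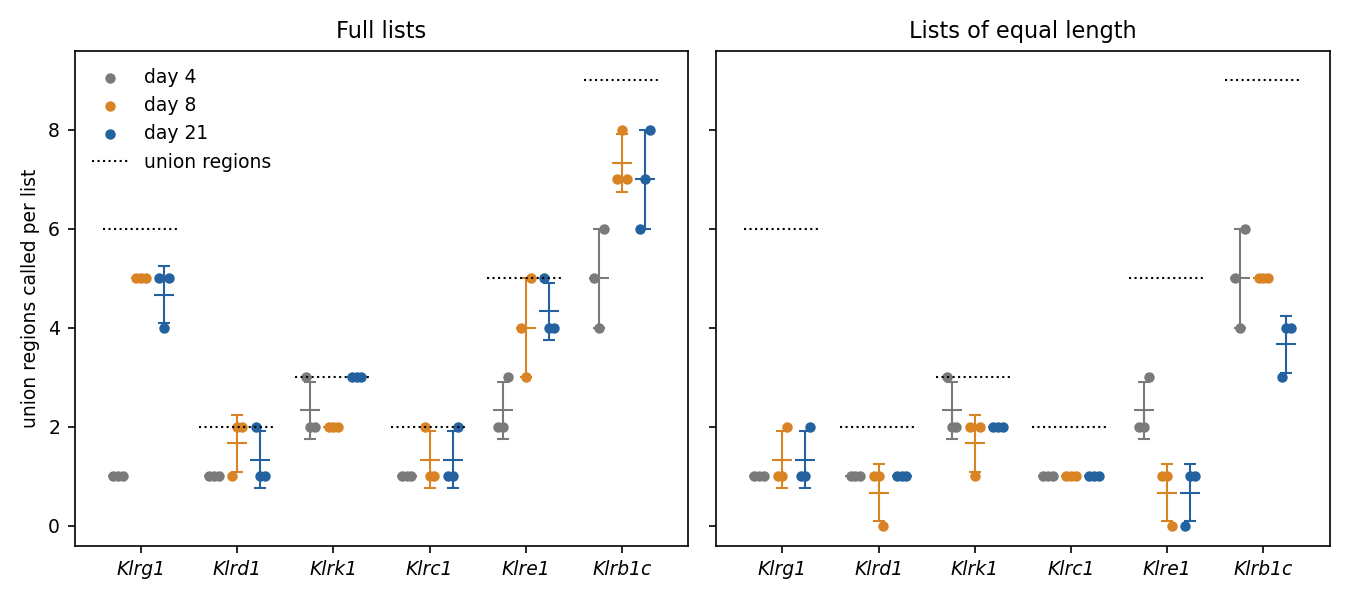
Number of union regions called per list (vertical axis) at each receptor gene (horizontal axis) on days 4, 8 and 21, in full lists (left) and in lists cut to equal length (right); points are libraries, bars the mean ± SD of 3, and dotted lines the union regions of the gene. In full lists Klrg1 goes from 1 to 4 or 5 regions, while in equal lists it has 1 or 2 on every day.

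Klrc1, the inhibitory NKG2A chain, had the largest difference in log2 rank among the 5 of 27 receptor regions ranked in all 9 lists. Its body spans chr6:129666015-129682852. The region at chr6:129680119-129680957 inside it, 839 bp wide, was called in all 9 lists. It ranked 8050, 6391 and 4393 on day 4, 5272, 4643 and 3427 on day 8, and 1186, 1995 and 789 on day 21. Every day 21 rank was stronger than every earlier one, while those of days 4 and 8 overlapped. How many other ranked regions show this order was not counted. The mean rank went from 6278 ± 1831 to 4447 ± 938 and 1323 ± 615 (SD, n = 3), and as a share of the full list its position was 19.7–40.5% on day 4, 6.74–11.1% on day 8 and 1.53–4.29% on day 21. The fold enrichment at its summit was 6.58 to 8.05 on day 4, 11.8 to 13.1 on day 8 and 13.8 to 14.1 on day 21. Later values also stood above all day 4 values at other receptor regions called in all 9 lists, among them those of Klrd1 and Klrk1, and not at that of Klrg1. This separation was not counted over all regions. The rank test was chosen after ranks of receptor peaks had been seen, so its p-values are not those of a planned test. The log2 rank difference was −2.31 ± 0.39 on day 21 against day 4 (limma adjusted p = 3.44e-05), beside 8.5% of regions stronger. It was −1.83 ± 0.39 on day 21 against day 8 (adjusted p = 0.00331), beside 3.58%. On day 8 against day 4 it was −0.48 ± 0.39 (adjusted p = 0.433). As a share of the full list the differences were −3.54 (adjusted p = 7.59e-10), −1.82 (0.00601) and −1.73 (0.000165), in the same order. The medians of all ranked regions on that scale were −1.23, 0.042 and −1.26. Lists of days 8 and 21 are similar in length, so their comparison depends little on the use of shares. Leaving out any 1 library kept both calls, with adjusted p of at most 0.000905 and 0.0341. The call of day 21 against day 8 did not hold when ranks were taken by the authors' fold enrichment (−2.25, adjusted p = 0.156) or left unlogged (−3124 ranks, adjusted p = 0.0643), whereas that of day 21 against day 4 did (−3.41, 0.000700 and −4955 ranks, 0.00146).

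In counts the days overlapped at Klrc1, with 1, 1 and 1 regions on day 4, 2, 1 and 1 on day 8, and 1, 1 and 2 on day 21. Its other region, at the start site, gave the additional calls. Klrc1, Klrc2 and Klrc3 are similar in sequence, and the handling of multi-mapping reads is not given in any source used here, which makes calls among them uncertain. Klrc2 had no region, and the single region of Klrc3 (chr6:129644025-129644397) was called in 2 of 3 lists of day 21 and in none before.

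Klrd1, the CD94 partner of Klrc1, kept 1 of its 2 regions throughout. Its body spans chr6:129588092-129598775. The region at chr6:129591443-129591958 was called in all 9 lists. The other, chr6:129592889-129593253, was called in 0 lists on day 4, 2 on day 8 and 1 on day 21. Klrd1 thus had 1 called region in each day 4 list, 1, 2 and 2 on day 8, and 2, 1 and 1 on day 21, and the groups overlapped.

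Klrk1, the activating NKG2D receptor, had the only receptor region gained between days 8 and 21. Its body spans chr6:129610323-129623903, and its 3 regions lay outside. The gained region, chr6:129606976-129607281, 3.04 kb below the gene, was called in 1 list of day 4, 0 of day 8 and 3 of day 21. None of the day 21 calls was among the 19499 strongest peaks, whereas the day 4 call was. Counts per list were 3, 2 and 2 on day 4, 2, 2 and 2 on day 8, and 3, 3 and 3 on day 21. Every day 21 list exceeded every day 8 list by 1 region, the gained one, and how many other genes show such a separation was not counted. Relative to list length the differences were −1.46 ± 0.20 on day 8 against day 4 (limma adjusted p = 0.000621), −0.97 ± 0.20 on day 21 against day 4 (0.00489) and 0.50 ± 0.20 on day 21 against day 8 (0.513). Without division they did not pass: −0.16 (adjusted p = 0.469) and 0.32 (0.170) against day 4. In lists of equal length they were −0.50 (0.658) and −0.25 (0.915), and with peaks covering at least 50% of a region −0.98 (0.0957) and −0.49 (0.410).

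The Klrk1 region nearest the gene lies at chr6:129608225-129608946, 1.38 kb below the gene, and was called in all 9 lists. Its fold enrichment was 6.18, 5.77 and 6.02 on day 4, 8.89, 7.85 and 6.52 on day 8, and 8.04, 6.67 and 7.76 on day 21, all later values above those of day 4. Among receptor regions called in all 9 lists, this also held at the other Klrk1 region, at those of Klrd1 and Klrc1 and at some of Klrb1c. It did not hold at those of Klrg1 and Klre1 or at the other Klrb1c regions. How many of all regions show it was not counted. It ranked 6716, 7645 and 6492 on day 4, 10512, 12005 and 16749 on day 8, and 8520, 13313 and 8588 on day 21. Day 4 rank numbers were smaller than all later ones, an order not counted over all regions, and days 8 and 21 overlapped. In shares of the full list the ranks were 29.2–39.2%, 22.1–33.0% and 16.6–28.6%, the opposite order. The log2 rank difference was 0.89 ± 0.25 on day 8 against day 4 (limma adjusted p = 0.0140), 0.52 ± 0.25 on day 21 against day 4 (0.158) and −0.37 ± 0.25 on day 21 against day 8 (0.385). Without the third library of day 8 the first of these no longer passed (0.70, adjusted p = 0.125). Ranked by fold enrichment, day 21 against day 4 passed (0.99, adjusted p = 0.00590). With shares of the full list the first difference turned to −0.36 (0.191) and that of day 21 against day 4 to −0.72 (0.0113), so the direction against day 4 depends on how list length is treated. On that scale the medians of all ranked regions were −1.26 and −1.23. The third Klrk1 region, chr6:129627262-129627926, 3.36 kb above the gene, was also called in all 9 lists.

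**Figure D3:**
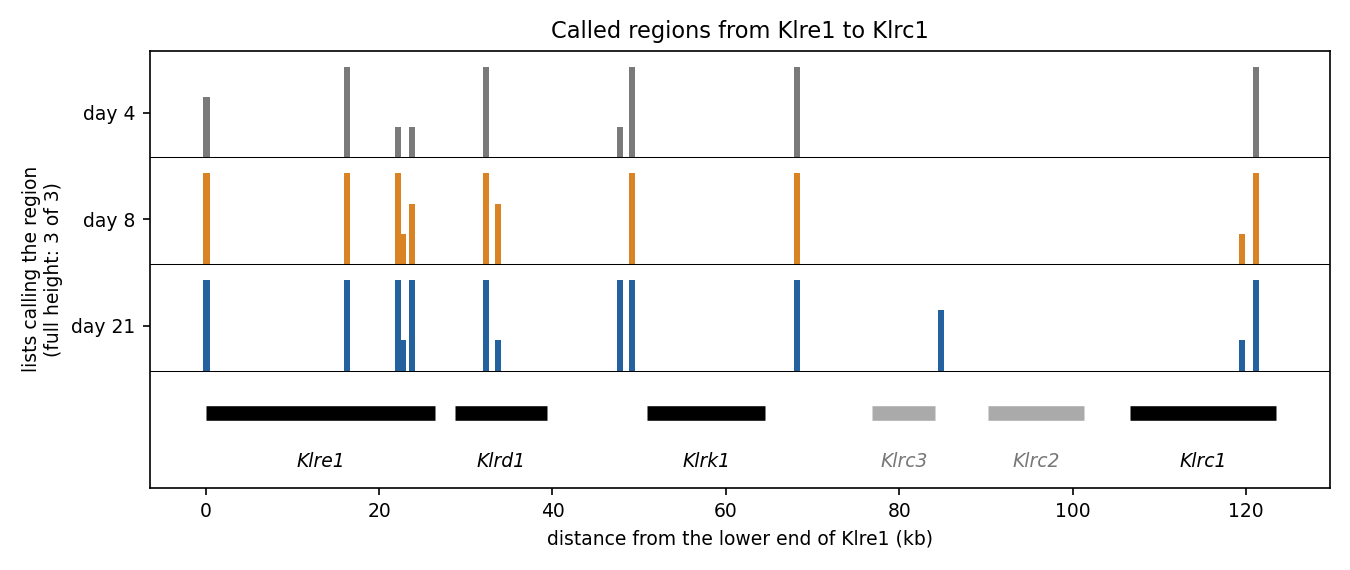
Lists that called each union region from Klre1 to Klrc1 on days 4, 8 and 21 (vertical axis, full height 3 of 3 lists) against distance in kb from the lower end of Klre1 (horizontal axis); bars are drawn wider than the regions, gene bodies are black for receptor genes described here and grey for Klrc3 and Klrc2. The region below Klrk1 appears in 1 list of day 4, none of day 8 and all 3 of day 21.

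Klre1, the partner of Klri1 and Klri2, had more called regions on later days in full lists and fewer in lists of equal length. Its body spans chr6:129559365-129585828, and all 5 regions overlapped it. Counts were 2, 2 and 3 on day 4, 4, 3 and 5 on day 8, and 5, 4 and 4 on day 21, so that days 4 and 8 shared a value of 3. Relative to list length the differences were −0.64 ± 0.18 on day 8 (limma adjusted p = 0.0180) and −0.51 ± 0.18 on day 21 (0.0463) against day 4. Without division they turned to 0.66 (0.0220) and 0.78 (0.0120). The day 8 call was lost without the third library of day 4 (−0.54, adjusted p = 0.0540) or the second of day 8 (−0.48, 0.0705). The day 21 call was lost without the second (−0.55, 0.0592) or the third (−0.41, 0.124) library of day 4, the first of day 8 (−0.51, 0.0661), or the second (−0.49, 0.115) or the third (−0.41, 0.161) of day 21. A replicate block ended it as well (−0.51, 0.0711).

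Inside Klre1 the region at chr6:129575347-129575992 was called in all 9 lists, yet it was among the 19499 strongest peaks in 3 of 3 lists on day 4 and in 0 of 3 on days 8 and 21. It was the 1 receptor region lost in lists of equal length, where Klre1 had 2, 2 and 3 regions on day 4, 1, 1 and 0 on day 8, and 0, 1 and 1 on day 21. Those equal-length differences did not pass (−1.52, adjusted p = 0.603 on day 8, and −1.51, 0.640 on day 21, against day 4). At chr6:129581335-129581656 calls went from 1 list to 3 and 3, and at chr6:129582994-129583430 from 1 to 2 and 3. The region across the lower gene end, chr6:129559275-129559639, was called in 2, 3 and 3 lists, and chr6:129581943-129582212 in 0, 1 and 1.

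Klrb1c, which encodes NK1.1, had the most regions and the most that were already called on day 4. Its body spans chr6:128778485-128788641, and 7 of 9 regions lay outside. Counts were 5, 4 and 6 on day 4, 7, 8 and 7 on day 8, and 6, 7 and 8 on day 21, with 6 shared between days 4 and 21. Relative to list length its differences were −0.78 ± 0.13 on day 8 (limma adjusted p = 0.00154) and −0.84 ± 0.13 on day 21 (0.00115) against day 4. These values turned without division, to 0.52 (0.0178) and 0.45 (0.0307). In equal-length lists they were −0.07 (0.914) and −0.48 (0.571). Klrb1c is itself an NK cell marker. Of the other 8 on day 4, Ncr1 (1 region), Fcer1g and Klra8 had no called region, while Nkg7 had 2 of 2 in every list, Eomes 4 to 6 of 18, Itga2 3 to 6 of 13, Tyrobp 1 of 4 and Gzma its single region in 2 lists. The part of NK cells was not tested.

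Outside the Klrb1c body 4 regions were called in all 9 lists, at chr6:128760036-128761189, chr6:128763842-128764600, chr6:128766572-128767276 and chr6:128798861-128799984. The second ranked 5879, 5232 and 6777 on day 4, 6482, 6296 and 6683 on day 8, and 8822, 6225 and 9595 on day 21. All days overlapped, and the log2 rank differences of 0.13, 0.32 and 0.45 did not pass (limma adjusted p = 0.801 on day 8 against day 4, 0.526 on day 21 against day 8 and 0.290 on day 21 against day 4). Ranked by fold enrichment its rank numbers were larger on both later days than on day 4 (0.77, adjusted p = 0.000426 and 0.82, 0.000246), although the fold enrichment itself was 4.93 to 5.33 on day 4, 6.18 to 6.47 on day 8 and 5.40 to 6.56 on day 21. Its shares of the full list were smaller later (−1.12, 0.000472 and −0.79, 0.0105). The third ranked 15851, 13548 and 16725, then 19497, 18855 and 17807, then 11256, 15990 and 11724, with fold enrichments of 3.56 to 4.06, 4.73 to 4.92 and 5.30 to 6.05. As a share of the full list its differences against day 4 were −0.96 (limma adjusted p = 2.90e-05) and −1.49 (1.43e-08). On this scale the median of all 12755 ranked regions was −1.26 on day 8 and −1.23 on day 21, and 10563 and 10384 regions were called stronger. A smaller share later was thus the usual case, and only the −1.49 lay below the median. By rank the difference of the third region between days 21 and 8 was −0.54 ± 0.18 (limma adjusted p = 0.0635), and it passed without the second library of day 4 (−0.54, 0.0472) or of day 21 (−0.70, 0.0403).

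The remaining Klrb1c regions were called less regularly. At chr6:128753840-128754615 calls stood in 2, 3 and 3 lists of days 4, 8 and 21, and at chr6:128796136-128796778 in 1, 3 and 3. Inside the gene, chr6:128783423-128783816 was called in 0, 3 and 2 lists, a gain on day 8. The region at chr6:128775173-128775453 was called in 1 list of day 21 only.

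**Figure D4:**
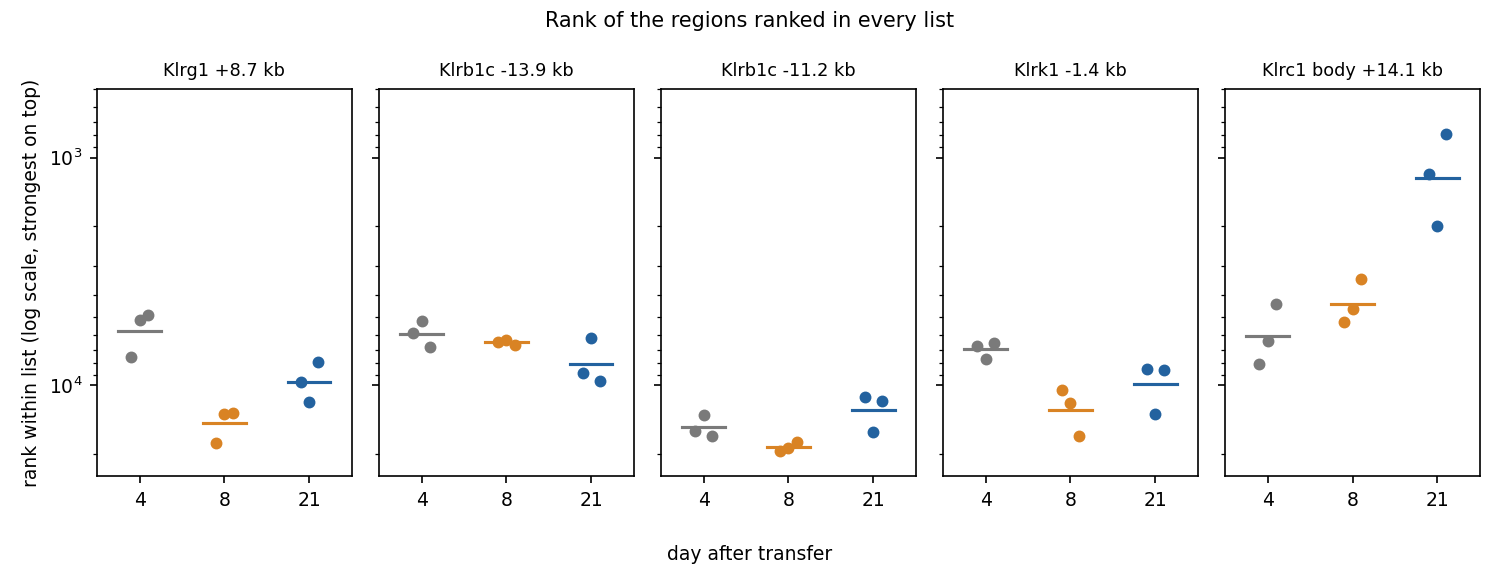
Rank within the list (vertical axis, log scale, strongest on top) of the 5 receptor regions ranked in all 9 lists of equal length, by day after transfer (horizontal axis); points are libraries and lines the geometric mean of 3. The Klrc1 region lies at 789 to 1995 on day 21, above all its earlier ranks; positions on day 4 come from lists less than 0.5 as long as the later ones.

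Of 27 receptor regions, 5 were ranked in all 9 equal-length lists and 9 in none. Among the 5, on day 8 against day 4 0 were stronger and 2 weaker, beside 7.92% and 6.73% of all 12755 ranked regions. On day 21 against day 8 1 was stronger and 0 weaker, beside 3.58% and 2.67%. On day 21 against day 4 1 was stronger (Klrc1) and 1 weaker (Klrg1), beside 8.5% and 7.34%. These counts are of rank positions, and of them only the 2 at Klrc1 were also called for a rank as a share of the full list. The direction of rank calls at large depended on the measure: 54.1%, 57.3% and 53.7% of called regions were stronger in the 3 comparisons by −log10 p. By fold enrichment 1146 regions were stronger and 3452 weaker on day 8 against day 4, 1285 and 3834 on day 21 against day 4, and 7 and 2 on day 21 against day 8. By share of the full list, which put the median log2 rank difference of all regions at −1.26 on day 8 and −1.23 on day 21 against day 4, 10563 regions were stronger and 83 weaker on day 8 against day 4, 10384 and 74 on day 21 against day 4, and 348 and 279 on day 21 against day 8.

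Among 21 other killer lectin-like receptor genes, 18 had a region and 6 were tested. Called regions per list were 11–12 of 42 on day 4, 27–28 on day 8 and 29–37 on day 21. In each comparison with day 4, 1 gene was higher and 1 lower (limma, over all genes), and the medians of the 6 were −0.10 on day 8 and 0.74 on day 21, beside −0.14 and −0.15 for all genes. Klra8 (Ly49H, an activating receptor for a cytomegalovirus protein) had no called region on day 4, 2.33 on average on day 8 and 3 on day 21, with log2 differences of 1.18 (adjusted p = 0.00615) and 1.52 (0.00197). Like those of Clec2g, Clec12a, Raet1e and Tbx21 below, which also had no called region on day 4, these differences depend on the pseudocount. Klrb1f, with 2.67, 4 and 3.67 called regions of 4, came out at −0.78 (0.00295) and −0.89 (0.00176). Its highest possible values were −0.78 and −0.77, so the direction was fixed by the division. Klri1, the Klre1 partner, had 0, 0.333 and 2 called regions of 3 on average, and its difference between days 21 and 8 was 1.72 (adjusted p = 0.333). Klra genes are close copies of each other, so their calls carry the same uncertainty as those of the Klrc genes.

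The lectin genes that neighbour the receptors included 8 tested of 16 matched, with 2 higher and 1 lower on day 8 and 2 higher and 2 lower on day 21 against day 4 (medians 0.12 and 0.16). Clec2g was higher (1.75 and 1.88, limma adjusted p = 0.000208 and 0.000144 over all genes), as was Clec12a (0.94 and 1.19, 0.0367 and 0.0138). Cd69, an early activation and tissue retention receptor, had 7.67, 11.7 and 14 called regions of 15 and came out at −0.73 (0.000588) and −0.46 (0.00579), with highest possible values of −0.38 and −0.36. Clec2i had 1.67, 3 and 2.33 of 4 and gave −0.88 on day 21 (0.0259), with −0.20 as the highest possible. Both could thus only come out lower.

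Ligand genes of these receptors, which the partner cell would display, had 6 tested of 9 matched, with 2 higher and 0 lower in both comparisons with day 4 (medians 0.63 and 0.62). These were the NKG2D ligand genes Raet1e (1.84, limma adjusted p = 0.000136, and 2.07, 9.61e-05) and Ulbp1 (0.46, adjusted p = 0.0176, and 0.41, 0.0294). H2-T23, the Qa-1 gene, had 1 region, called in every list. Cdh1, the E-cadherin gene bound by Klrg1, had 1.67, 5.67 and 5.67 called regions of 7 and did not pass (0.23, adjusted p = 0.381 on day 8).

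Of 17 adaptor and signalling genes 15 were tested, with 4 higher and 3 lower on day 8 and 2 higher and 4 lower on day 21 against day 4 (medians 0.025 and 0.062). Tyrobp had 1 called region of 4 on day 4 and 4 on both later days (0.28, limma adjusted p = 0.206 on day 8), and Hcst, with 2 regions and no test, had 0.667 and then 2. All lower calls of this list were of genes that could only come out lower. The kinase Zap70 had 2, 3 and 3 called regions of 3, and its −0.82 (adjusted p = 0.00681) on day 8 and −0.80 (0.00768) on day 21 are the highest values it could reach. Lck had 3.67, 5.33 and 6.33 of 8 and gave −0.81 (0.00278) and −0.58 (0.0144), with highest possible values of −0.26 and −0.25. Lcp2 (SLP-76), an adaptor of antigen receptor signalling, was higher (0.90, 0.0234 and 1.03, 0.0140), as was the kinase Fyn (0.53, 0.00257 and 0.66, 0.00104).

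Transcription factors of effector and NK cells had 13 tested, with 3 higher and 3 lower on day 8 and 3 higher and 2 lower on day 21 against day 4 (medians −0.0063 and −0.019). Runx3, whose family reads the letters marked above, had 5.67 called regions on day 4, 17 on day 8 and 12.7 on day 21 of 24 and did not pass (0.22, limma adjusted p = 0.189 on day 8). Tbx21 (T-bet) was higher (2.04, 0.000370 and 1.73, 0.000855), as were Zeb2 (0.95, 0.0108 and 0.68, 0.0431) and Ikzf2 (0.35, 0.0322 and 0.33, 0.0423). Gata3 was lower (−0.72, 0.00187 and −0.71, 0.00222), as was Tcf7 (−0.54, 0.00162 and −0.45, 0.00407). Their highest possible values were −0.66 and −0.65 for Gata3 and −0.19 and −0.17 for Tcf7. Eomes was lower on day 8 only (−0.36, 0.0316), with 0.46 as its highest possible value. For all these lists 0 genes passed between days 8 and 21, and 0 passed in lists of equal length in any comparison; without division no gene was lower on either later day, so the lower calls above rest on the division by list length.

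Genes with the most similar share of called regions over the 9 lists were found by Euclidean distance, among genes with at least as many regions. Klrg1 was nearest to Cmah (0.109), Skap1 (0.132) and Bsn (0.144) of 3144 genes. Klre1 was nearest to H2-Q6 (0.200), Iqgap1 (0.241) and Rrp1b (0.256) of 4140, and Klrb1c to Csnk1g3 (0.192), Tnfaip3 (0.194) and Tmcc3 (0.214) of 1578. The neighbours of Klrk1 were farther away: 4930486L24Rik (0.312), 1700008O03Rik (0.333) and Cfdp1 (0.333) of 7827. The distances were not tested, and the 9 lists share their lengths across all genes.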

How the data were processed

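ATAC-seq was measured in 9 libraries, 3 per day. Groups came from the sample titles, since the genotype and time point tags hold each other's values. Per the submitters' processing notes, the tools were MACS2, Picard, deepTools 2.0 and BWA 0.7.15, with mm10 as the build; their roles, settings and read filters are not given in any source used here. The deposited lists, 1 per library, give the authors' peak positions and summits, a score, a fold enrichment over local background, and −log10 p and q. The largest q was 0.0500. Read depth is unknown.

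Peaks on chromosomes 1 to 19 and X (353295) were merged into 62963 union regions with Python 3.11.15, and placed on 21627 protein-coding genes of a RefSeq table (GRCm38.p6), which placed 95.3% of regions. Coordinates are 1-based. Over 7828 genes that had 3 or more union regions, log2((regions called + 0.5) / relative list length) was fitted with limma 3.58.1 (trend, robust; R 4.3.3), 1 term per day, 6 residual degrees of freedom, a variance floor of 1 region called with probability 0.5, and Benjamini-Hochberg adjustment over all genes. Ranks by −log10 p were fitted likewise over 12755 regions. That test was chosen after ranks of receptor peaks had been seen, and the rank as a share of the full list was added later still. The gene scripts were tested on simulated data.

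The members, gene lists and motifs were chosen with earlier results of these data known. Genes of a list were named where they passed (at most 4 a comparison, but every transcription factor that passed) or where the text explains their role. Alternatives were another pseudocount, other minimum region numbers, no division, equal list lengths, 50% coverage, a stricter q of 0.001, a limit of 50 kb, a replicate block and leaving out each library. Some of the 13 listed ligand genes, 17 neighbours and 14 factors are not analysed here.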

Additional observations from a re-analysis of the deposited data

How the results depend on the processing

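Library sizes are not in the lists, so low counts of called regions on day 4 cannot be told apart from shallow calling, and regions present below the calling limit count as absent. Genes called between day 8 and day 4 and between day 21 and day 4 numbered 3119 and 3084. They were 1289 and 1255 among genes with at least 6 union regions, 7271 and 7052 with at least 1, 6509 and 6360 without division, 11 and 9 in lists of equal length, and 10 and 7 in lists of equal length without division. Between days 21 and 8 the count of 0 became 2 without the variance floor and 1 with a pseudocount of 1.

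Klrg1 stopped passing with a pseudocount of 1 (0.28, limma adjusted p = 0.0857 on day 8 and 0.21, 0.199 on day 21 against day 4) and in lists of equal length (0.16 and 0.16; 0.25 and 0.25 without division), and turned with 50% coverage (−0.12 and −0.21). Klrk1 stopped passing in lists of equal length (−0.50 and −0.25; −0.41 and −0.16 without division) and with 50% coverage (−0.98 and −0.49), and in full lists without division gave −0.16 and 0.32. Klre1 gave −1.52 and −1.51 in lists of equal length (−1.43 and −1.43 without division) and turned to 0.66 and 0.78 in full lists without division. Klrb1c gave −0.072 and −0.48 in lists of equal length (0.016 and −0.39 without division), turned to 0.52 and 0.45 in full lists without division, and between days 21 and 8 went to 0.0072 at the stricter q. Equal length leaves fewer peaks, and dropping the division removes the correction for longer later lists; for the other settings the cause was not tested.

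Receptor regions gained fell to 0 in each of the 3 comparisons with equal length and 1 was lost on both later days against day 4, while 5 were gained on day 21 against day 4 with 50% coverage. Over all 62963 regions, equal length left 861 gained on day 8 and 891 on day 21 against day 4, and 402 on day 21 against day 8. Receptor regions called per list were 10.3 on day 8 and 9.67 on day 21 with equal length, and 8.67 on day 4 and 20.3 on day 8 with 50% coverage.

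Regions changed in rank numbered 4598, 9 and 5119 by fold enrichment on day 8 against day 4, day 21 against day 8 and day 21 against day 4, and 408 on day 21 against day 8 with unlogged ranks. By fold enrichment the Klrb1c region 13.9 kb below the gene passed (0.77 and 0.82), the Klrk1 region 1.38 kb below it gave 0.10 on day 21 against day 8 and 0.99 on day 21 against day 4, the Klrc1 region gave −2.25 on day 21 against day 8, and the Klrb1c region 11.2 kb below the gene gave 0.054 on day 21 against day 4. With ranks as a share of the full list, 10646 and 10458 regions changed against day 4. On day 8 and day 21 against day 4 the Klrb1c region 13.9 kb below the gene then gave −1.12 and −0.79, the one 11.2 kb below −0.96 and −1.49, and the Klrk1 region −0.36 and −0.72, with −1.73 for the Klrc1 region on day 8 and −0.49 for the Klrg1 region on day 21. With unlogged ranks the Klrc1 region gave −3124 (limma adjusted p = 0.0643) and the Klrg1 region 3937 (0.122).

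Leaving out each library in turn gave 2030 to 2930 genes called on day 21 against day 4 (2030 without the third library of day 21), −0.77 to −0.48 for Klre1 on day 8, −0.024 to 0.26 on day 21 against day 8 and −0.63 to −0.41 on day 21 against day 4, 0.42 to 0.55 for Klrg1 on day 21 against day 4, and −0.12 to 0.020 for Klrb1c on day 21 against day 8. The single reversed values were −0.024 for Klre1 and 0.016 for Klrb1c without the second library of day 8, and 0.020 for Klrb1c without the first of day 21. Receptor regions gained on day 21 against day 4 were 3 to 5. Regions changed in rank were 1014 to 1809, 338 to 987 and 1227 to 1948 in the 3 comparisons. The log2 rank differences were 0.70 to 1.03 for the Klrk1 region on day 8 against day 4, −0.70 to −0.45 for the Klrb1c region 11.2 kb below the gene on day 21 against day 8, and 0.60 to 0.94 for the Klrg1 region on day 21 against day 4.

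Replicate numbers recur across days, and the deviations of same-numbered libraries correlated little: 9 correlations ran from −0.030 to 0.061, 0 above 0.1. The own number correlated best in 5 of 9, in every pair of day 8 with day 21 and in no pair of day 4 with day 21. Whether same-numbered libraries were handled together was not tested. With a replicate block 2637 and 2501 genes were called against day 4, and Klre1 on day 21 against day 4 no longer passed (−0.51, limma adjusted p = 0.0711), while no other receptor call changed.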
